A study of Bos indicus x Bos taurus with 11 samples.

Results

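The genes described here encode the alpha chains of the collagens, the main structural proteins of skin. They were chosen by name, as every gene called COL, a number, A and a number, and came to 39 of the 27398 rows in the table of gene counts. RNA was measured by sequencing after ribosomal RNA had been depleted, in primary fibroblast cultures grown from fetal skin in medium with 10% serum. Each of the 11 libraries is the culture of 1 fetus. Large offspring syndrome (LOS) is overgrowth of the fetus in cattle, and the 6 LOS fetuses were conceived by assisted reproduction and weighed more than the 97th centile of the controls. The 5 control fetuses were conceived by artificial insemination. The LOS group held 3 males and 3 females, and the control group held 3 males and 2 females. All 11 were taken at day 105 of gestation and were F1 hybrids of Brahman and Angus cattle, so both groups share the cross, and part of the reads can be traced to the maternal or the paternal allele. No LOS library comes from artificial insemination, so the syndrome and the method of conception cannot be told apart. The p-values measure the spread between fetuses, as seen in 1 culture each.

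A collagen molecule is built from alpha chains that wind around each other into a long helix. Some types need chains of a single gene and others combine the products of several genes. Chains are hydroxylated, glycosylated and folded in the endoplasmic reticulum, and the procollagens of the fibrillar types are trimmed outside the cell and crosslinked into fibrils. In dermis, types I, III and V make the fibrils, types XII and XIV coat their surface, type VI forms beaded filaments around cells, and types IV and VII belong to the junction with the epidermis.

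Counts totalled between 12084822 and 19297167 per library, and a level is given in CPM, the count scaled to a library size corrected by TMM factors. CPM are not divided by transcript length, so they compare libraries and not genes. All 10 listed fibroblast markers, among them VIM, PDGFRA and DCN, passed the filter on low counts. Their levels, mainly VIM, summed to between 13898 and 20058 CPM in LOS libraries and between 12826 and 17989 CPM in control libraries. In LOS, 3 of them were on the higher side, VIM among these, and 7 on the lower side (median log2 fold change -0.09). Of the 8 keratinocyte markers in the table, 4 were too low to be tested, with at most 12 counts for KRT14, 5 for KRT15, 5 for TP63 and 21 for DSP in any library. Of the chain genes, 27 passed the same filter, by which a gene needs enough counts in a minimum number of libraries, and 12 did not.

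The 12 untested genes were close to absent. They included COL2A1 (1 to 5 counts per library) and COL10A1 (0 to 1), the main chains of cartilage and of its growth zone, and the type IX chains COL9A2 and COL9A3 (0 to 2 each), which coat cartilage fibrils. The type IV chains COL4A4, COL4A5 and COL4A6, of specialised basement membranes, had at most 2, 16 and 3 counts in a library. COL11A2 (at most 2 counts), COL19A1 (1), COL20A1 (4), COL23A1 (1) and COL26A1 (1) complete the set. COL11A1, which in cartilage assembles with the COL11A2 and COL2A1 chains, was by contrast present in every library, at 802, 829 and 996 CPM (lowest, median and highest) in LOS and at 722, 437, 991, 501 and 1189 CPM in controls 1 to 5.

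The collagen chain genes together took a large share of each library. Their counts made up 7.96%, 6.51%, 7.93%, 6.82%, 8.20% and 6.83% of the counts in LOS libraries 1 to 6, and 7.54%, 6.22%, 7.61%, 6.47% and 7.87% in control libraries 1 to 5. The mean share was 7.37% ± 0.73 (SD, n = 6) in LOS and 7.15% ± 0.74 (SD, n = 5) in controls, so the difference of 0.23 percentage points is smaller than the spread within either group. COL1A1 ranked 1st of all rows by counts summed over the libraries, and 9 chain genes were among the first 45 rows, with COL1A2 at rank 8, COL12A1 at 12, COL3A1 at 15, COL6A3 at 17, COL6A1 at 18, COL6A2 at 23, COL5A1 at 34 and COL5A2 at 45. These ranks count reads and favour long transcripts. The fibrillar chains held 4.90% ± 0.92 of all counts in LOS and 5.07% ± 0.41 in controls, the type VI chains 1.43% ± 0.12 and 1.38% ± 0.11, and the fibril-associated chains 0.92% ± 0.30 and 0.57% ± 0.34 (SD, n = 6 and n = 5). COL12A1 alone held 0.87% ± 0.31 of all counts in LOS and 0.51% ± 0.35 in controls (SD, n = 6 and n = 5), and so made up most of the fibril-associated class.

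**Figure D1:**
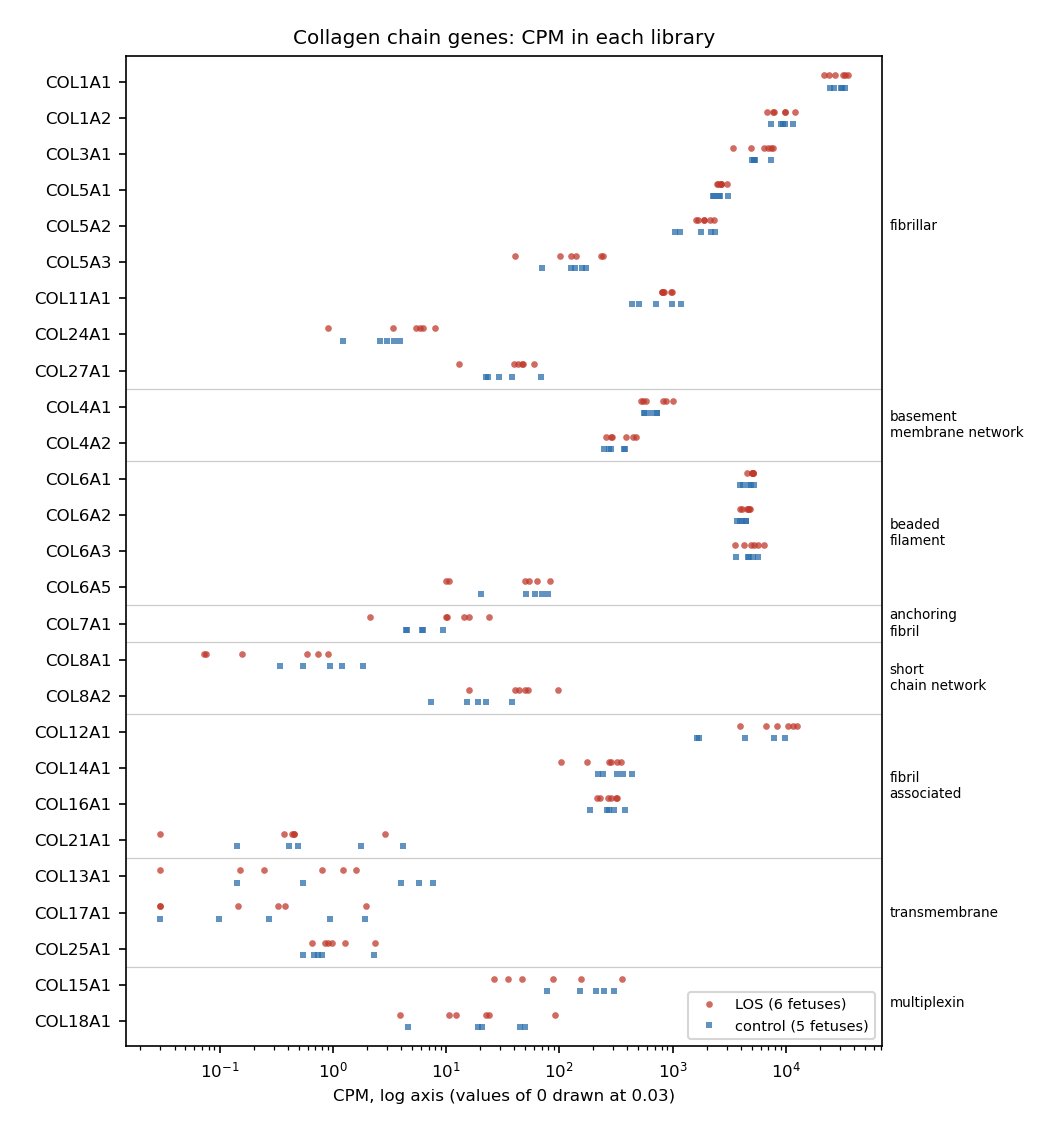
CPM (x axis, log scale) of the 27 tested collagen chain genes (y axis, grouped by class) in each library, with 6 LOS fetuses as circles and 5 control fetuses as squares; values of 0 are drawn at 0.03. The points of the 2 groups overlap for every gene, and among genes with counts in all libraries the ratio of the highest to the lowest runs from 1.30 for COL6A2 to 25.3 for COL8A1.

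The first comparison asks whether LOS fibroblasts differ from control fibroblasts in collagen chain RNA. None of the 27 tested chain genes passed the test, and the groups overlapped for each of them, against 0.23% of all tested genes with groups that did not. edgeR's quasi-likelihood test, with sex as a term and Benjamini-Hochberg adjustment over 16946 genes, called 0 chain genes at an adjusted p under 0.05, beside 0.0% of all genes. DESeq2 and limma voom called 0 chain genes as well. At an unadjusted p under 0.05 there were 4 chain genes of 27, beside 4.44% of all genes, namely COL8A2, COL13A1, COL7A1 and COL12A1. This count was 6 without LOS 1, 2 without LOS 4, control 1 or control 2, and 1 without LOS 2, LOS 3 or LOS 6 or with a replicate block. The count over all genes moved as well, from 752 of 16946 to 1826 of 16770 without LOS 1. It was 812 of 16855 without LOS 4, 546 of 17426 without control 1 and 1126 of 17417 without control 2. Without LOS 2 it was 452 of 16836, without LOS 3 614 of 16803 and without LOS 6 452 of 16823. With a replicate block it was 742 of 18656. LOS was on the higher side for 16 chain genes and on the lower side for 11, where 49.8% of all genes were on the higher side, and the median log2 fold change (LOS minus control) was 0.09 over the chain genes and 0.00 over all genes. A difference of at least 0.5 on the log2 scale was seen in 9 of the 27 chain genes, beside 11.7% of all genes. Chain genes also varied more between fetuses: the median SD of log2(CPM + 0.5) over the 11 libraries was 0.58 for chain genes and 0.28 for all genes. In bulk RNA, fewer cells of a kind and less RNA per cell cannot be told apart.

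Among the fibrillar chains, the levels that make up most of the collagen RNA differed little. COL1A1, the major chain of type I collagen, stood at 21882, 29703 and 35197 CPM (lowest, median and highest) in LOS, and at 31443, 24743, 30834, 26751 and 33388 CPM in controls 1 to 5. COL1A2, its partner chain, stood at 6813, 8876 and 12084 CPM in LOS, and at 9421, 7423, 9809, 9169 and 11512 CPM in controls. In both genes 3 LOS libraries were above and 3 below the control median, and the log2 fold changes were -0.03 ± 0.16 (SE) for COL1A1 and -0.07 ± 0.18 for COL1A2.

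COL3A1, which forms type III collagen alone, stood at 3414, 6743 and 7690 CPM in LOS and at 5350, 7345, 5257, 5084 and 5277 CPM in controls (log2 fold change 0.07 ± 0.18). Controls 1, 3, 4 and 5 lay within 5084 to 5350 CPM and control 2 above them. The type V chains COL5A1 and COL5A2 take part in starting and limiting fibril growth. COL5A1 ran from 2470 to 3056 CPM with a median of 2675 in LOS, against 2623, 2292, 2591, 2317 and 3107 CPM in controls (0.06 ± 0.11). COL5A2 ran from 1608 to 2302 CPM with a median of 1898 in LOS, against 1771, 1062, 2168, 1162 and 2367 CPM in controls (0.20 ± 0.22), and the 2 lowest libraries were controls 2 and 4. COL11A1 gave the same picture, since controls 2 and 4 were again the lowest while all 6 LOS libraries were above the control median (0.24 ± 0.23). COL5A3 (0.15 ± 0.41) and COL27A1 (0.19 ± 0.38) had wider spreads. COL24A1, a minor fibrillar chain, stood at 0.90, 5.66 and 7.91 CPM in LOS and at 2.63, 3.51, 2.99, 1.23 and 3.88 CPM in controls, with 5 of 6 LOS libraries above the control median (0.80 ± 0.45). In all, 7 of the 9 tested fibrillar chains were on the higher side in LOS and 2 on the lower side, without a call.

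The chains of type IV and type VI collagen differed by small amounts. COL4A1 and COL4A2 form the common network of basement membranes. COL4A1 stood at 527, 705 and 1013 CPM in LOS and at 724, 560, 652, 733 and 569 CPM in controls (0.15 ± 0.18). COL4A2 stood at 259, 340 and 474 CPM in LOS and at 370, 273, 285, 379 and 248 CPM in controls (0.18 ± 0.19). The 3 highest libraries of both genes were LOS 1, LOS 6 and LOS 2, while LOS 3, 4 and 5 lay within the control range or just below it.

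COL6A1, COL6A2 and COL6A3 combine into the beaded filaments of type VI collagen. COL6A1 stood at 4564, 5092 and 5144 CPM in LOS and at 4896, 3913, 5220, 4157 and 4768 CPM in controls (0.13 ± 0.10), with 5 of 6 LOS libraries above the control median. COL6A2 stood at 3935, 4604 and 4805 CPM in LOS and at 4442, 3684, 4433, 3907 and 4131 CPM in controls (0.12 ± 0.10). COL6A3 stood at 3580, 5108 and 6489 CPM in LOS and at 4760, 4684, 5670, 3606 and 5185 CPM in controls (0.09 ± 0.16). COL6A1 and COL6A2 were the steadiest chain genes across fetuses, with 1.33-fold and 1.30-fold between the highest and lowest library. COL6A5, an alternative type VI chain, was the opposite, with an 8.35-fold range. It stood at 9.94, 51.8 and 83.0 CPM in LOS and at 50.7, 60.7, 79.2, 69.8 and 20.4 CPM in controls (-0.33 ± 0.55), and its low libraries were LOS 2, LOS 6 and control 5.

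The anchoring fibril and short chain collagens held 2 of the 4 genes with an unadjusted p under 0.05. COL8A2, a chain of type VIII collagen (chromosome 3, 109696709 to 109721081, build ARS-UCD1.2), stood at 16.0, 47.0 and 96.9 CPM in LOS and at 15.2, 19.0, 37.9, 7.43 and 22.4 CPM in controls. LOS 1 lay within the control range and the other 5 LOS libraries above it. The log2 fold change was 1.32 ± 0.42, the smallest p of the chain genes (unadjusted p = 0.00887, adjusted p = 0.932 by edgeR), and it ran from 1.08 to 1.58 when each library was left out. COL8A1, the other type VIII chain, was barely detected, with 1 to 26 counts per library. It stood at 0.073, 0.373 and 0.907 CPM in LOS and at 1.22, 0.543, 0.951, 0.344 and 1.84 CPM in controls (log2 fold change -1.19 ± 0.65). Every LOS library lay below the control median.

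COL7A1 makes the anchoring fibrils under the epidermis (chromosome 22, 51287234 to 51317718). It stood at 2.13, 12.3 and 23.8 CPM in LOS and at 4.53, 9.43, 6.18, 6.25 and 4.45 CPM in controls. LOS 1 was the lowest library of all and the other 5 LOS libraries were above every control. The log2 fold change was 1.02 ± 0.45 (unadjusted p = 0.0441 by edgeR). An antisense RNA, LOC107131697, lies over COL7A1 with up to 70.1 counts in a library, beside as few as 26 counts of COL7A1. Whether counting used the strand is not stated in the labels, so low values of COL7A1 are uncertain.

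The fibril-associated collagens sit on the surface of fibrils. COL12A1, the chain of type XII collagen (chromosome 9, 14661264 to 14779844), stood at 3923, 9376 and 12575 CPM in LOS and at 4398, 1728, 9897, 1653 and 7947 CPM in controls 1 to 5. Controls 2 and 4 were lowest, LOS 4, 5 and 6 were highest, and controls 3 and 5 lay among the LOS libraries. The log2 fold change was 0.92 ± 0.41 (unadjusted p = 0.0469 by edgeR), with 5 of 6 LOS libraries above the control median. COL14A1, the chain of the related type XIV collagen, stood at 104, 281 and 352 CPM in LOS and at 325, 368, 218, 244 and 438 CPM in controls, with 5 of 6 LOS libraries below the control median (-0.44 ± 0.26, unadjusted p = 0.116). COL16A1 stood at 217, 277 and 322 CPM in LOS and at 306, 382, 188, 273 and 264 CPM in controls (-0.05 ± 0.16). COL21A1 was near the limit of detection, at 0, 0.444 and 2.87 CPM in LOS and at 1.76, 0.494, 0.408, 4.18 and 0.141 CPM in controls (-1.27 ± 1.05).

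The transmembrane collagens were low in all libraries. COL13A1, a collagen of cell adhesion sites (chromosome 28, 26095666 to 26248051), stood at 0, 0.527 and 1.59 CPM in LOS and at 5.81, 7.65, 0.543, 4.03 and 0.141 CPM in controls. All 6 LOS libraries were below the control median, while controls 3 and 5 lay among them. The log2 fold change was -2.26 ± 0.96 (unadjusted p = 0.0376 by edgeR), at 0 to 155 counts per library. The library with 0 counts was LOS 6, and by counting error alone a count of 0 can arise from an expected count of up to about 3. The melanocyte and Schwann cell markers PMEL and NGFR, the 2 of that list in the table, were both tested, and their summed level was also highest in controls 2 (180 CPM) and 1 (75.2 CPM), beside 49.96 CPM in control 4, 43.1 in control 3, 4.09 in control 5 and 8.14 to 45.4 in LOS libraries. Their part in the COL13A1 difference was not tested. COL17A1, a collagen of the basal keratinocyte, had 0 to 39 counts and stood at 0, 0.238 and 1.96 CPM in LOS and at 0.946, 0.099, 0.272, 1.92 and 0 CPM in controls (-0.80 ± 1.21). COL25A1 had 9 to 33 counts, with 0.653 to 2.35 CPM in LOS and 0.541 to 2.33 CPM in controls (0.26 ± 0.44).

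The multiplexins COL15A1 and COL18A1 encode basement membrane collagens that carry sugar side chains, and the end of type XVIII collagen is released as endostatin. COL15A1 stood at 26.6, 67.2 and 356 CPM in LOS and at 247, 77.1, 210, 305 and 151 CPM in controls, with 5 of 6 LOS libraries below the control median and LOS 1 above every control (-0.92 ± 0.68). COL18A1 stood at 3.89, 17.4 and 91.5 CPM in LOS and at 19.0, 4.64, 45.0, 50.1 and 20.8 CPM in controls (-0.22 ± 0.91). Both genes were highest in LOS 1.

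**Figure D2:**
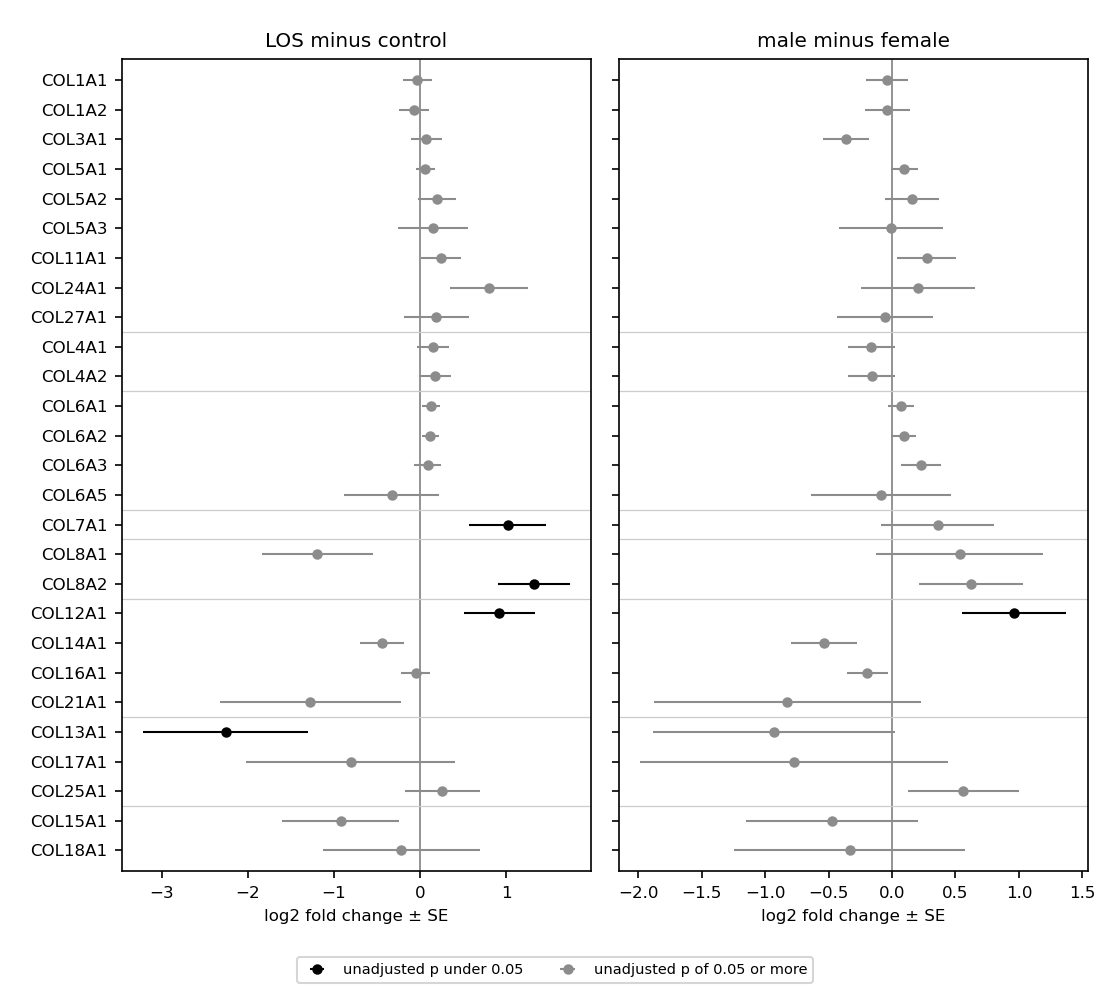
Log2 fold change ± SE (x axis) of the 27 tested chain genes (y axis, grouped by class) for LOS minus control (left) and male minus female (right), from edgeR; black points have an unadjusted p under 0.05. COL8A2, COL7A1, COL12A1 and COL13A1 are black on the left and COL12A1 is black on the right, and no gene passed the adjusted threshold.

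The chain genes fell into steady and variable ones across fetuses. The SD over the 11 libraries was taken of log2(CPM + 0.5), and the added 0.5 shrinks the spread of low genes. On this scale the 4 largest SDs were those of COL13A1 (1.41), COL18A1 (1.34), COL15A1 (1.27) and COL6A5 (1.10). The smallest SDs were those of COL6A2 (0.13), COL6A1 (0.14) and COL5A1 (0.14). Without the added 0.5, COL8A1, at 1 to 26 counts, had an SD of 1.58, above COL18A1 (1.39) and COL15A1 (1.28). COL13A1 had 0 counts in 1 library and so has no such SD. COL12A1, at 1.04, had the largest SD of the 10 chain genes with the highest mean CPM. It made up 12.0% ± 4.69 of the chain gene counts in LOS and 6.83% ± 4.32 in controls (SD, n = 6 and n = 5), between 4.97% in LOS 1 and 18.1% in LOS 6 and between 2.73% in control 4 and 12.6% in control 3. COL1A1 made up 38.3% ± 4.55 of them in LOS and 42.0% ± 2.01 in controls (SD, n = 6 and n = 5), and was lowest in LOS 6 (31.4%) and highest in LOS 1 (44.6%). The keratinocyte markers, mainly CDH1 and PERP, summed to 35.0 CPM in LOS 1, 20.5 CPM in control 3 and 17.2 CPM in control 4, beside 3.12 to 12.5 CPM in the other libraries. The same 3 libraries were highest for COL18A1 (91.5 CPM in LOS 1, 45.0 in control 3 and 50.1 in control 4). Of the 8 markers, KRT14, KRT15 and TP63 had at most 12 counts in any library. KRT5 reached at most 1.96 CPM in LOS and 1.72 CPM in controls. COL17A1, the collagen of the basal keratinocyte, was highest in LOS 2 (1.96 CPM) and control 4 (1.92 CPM), on at most 39 counts. It stood at 0.328 CPM in LOS 1 and 0.272 CPM in control 3. The part of the markers in the COL18A1 levels was not tested.

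**Figure D3:**
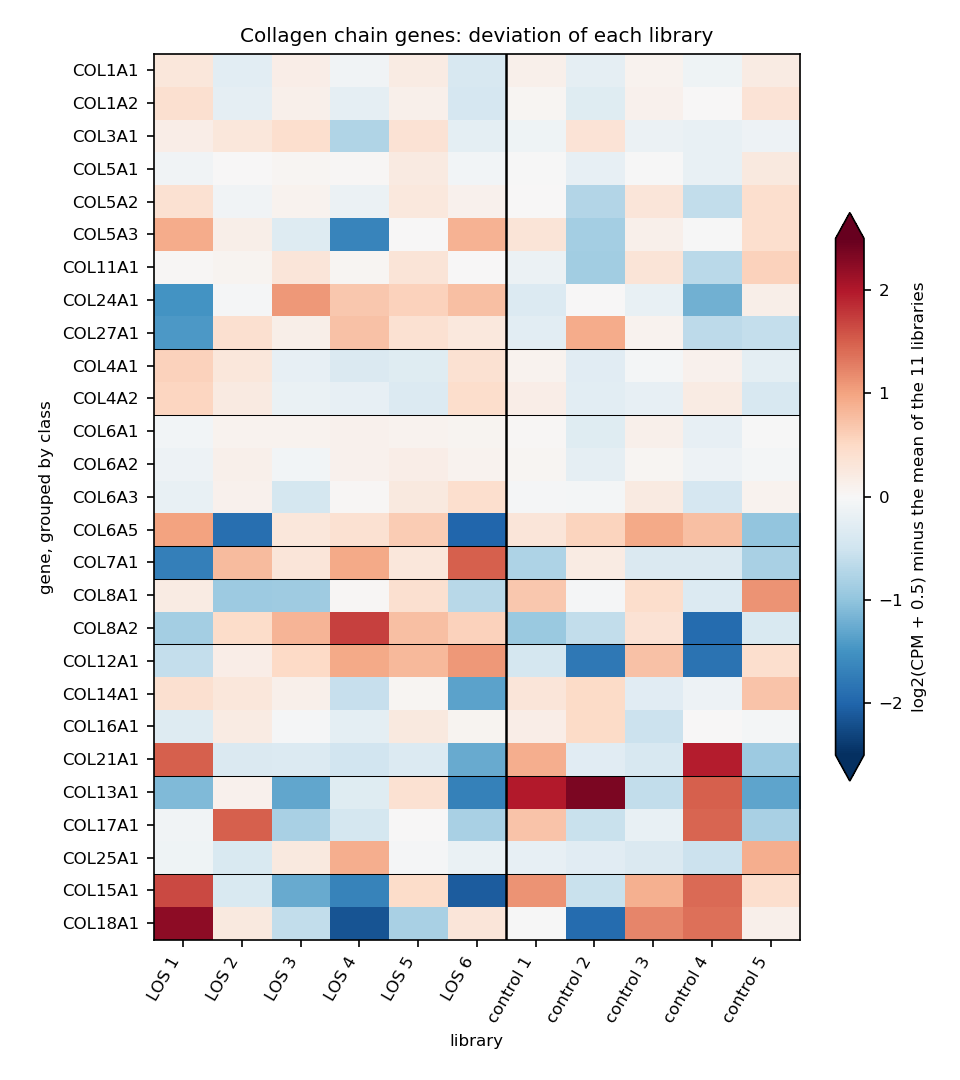
Deviation of log2(CPM + 0.5) from the mean of the 11 libraries (colour, red above and blue below) for the 27 tested chain genes (rows, grouped by class) in the 6 LOS libraries (left of the line) and the 5 control libraries (right). COL1A1, COL5A1, COL6A1 and COL6A2 are pale throughout, while COL13A1, COL15A1, COL18A1 and COL12A1 change colour within both groups.

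Sex was the second comparison, from the same fit. None of the 27 chain genes passed the test of male minus female, beside 0.0472% of all genes (8 of 16946), and DESeq2 and limma voom called 0 chain genes too. COL12A1 was the only one with an unadjusted p under 0.05, beside 3.3% of all genes. It stood at 1653, 10158 and 12575 CPM (lowest, median and highest) in the 6 males and at 3923, 6661 and 8333 CPM in females LOS 1 to 3 and 4398 and 1728 CPM in females control 1 and 2. Males LOS 4, 5 and 6 and control 3 were above every female, and control 4 was below every female. The log2 fold change was 0.96 ± 0.41 (unadjusted p = 0.0391, adjusted p = 0.999 by edgeR).

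COL8A2 averaged 43.1 ± 30.6 CPM in males and 28.7 ± 17.1 CPM in females (0.62 ± 0.41), and COL6A3 averaged 5276 ± 971 CPM in males and 4510 ± 621 CPM in females (0.23 ± 0.16; SD, n = 6 and n = 5 for both genes). On the lower side, COL14A1 stood at 104, 231 and 438 CPM in males and at 352, 321 and 289 CPM in females LOS 1 to 3 and 325 and 368 CPM in females control 1 and 2 (-0.54 ± 0.26, unadjusted p = 0.0615 by edgeR). COL3A1 averaged 5228 ± 1284 CPM in males and 6774 ± 915 CPM in females (-0.36 ± 0.18), and COL16A1 averaged 260 ± 46.3 CPM in males and 298 ± 61.0 CPM in females (-0.19 ± 0.16; SD, n = 6 and n = 5 for both genes). A difference of at least 0.5 on the log2 scale was seen in 8 of the 27 chain genes, beside 10.1% of all genes. In all, 12 chain genes were on the higher side in males and 15 on the lower side, where 49.9% of all genes were on the higher side.

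Whether the LOS difference itself depends on sex was tested by the interaction of group and sex. edgeR called 0 of the 27 chain genes, beside 0.0% of 17583 genes, and DESeq2 and limma voom called 0 chain genes. COL18A1 was the only chain gene with an unadjusted p under 0.05, beside 4.95% of all genes. Its LOS minus control log2 fold change was -1.59 ± 0.84 in males and 1.84 ± 0.98 in females, a difference of -3.43 ± 1.29 (unadjusted p = 0.0239, adjusted p = 0.921 by edgeR). The male LOS libraries stood at 3.89, 10.7 and 23.7 CPM and the male controls at 45.0, 50.1 and 20.8 CPM. The female LOS libraries stood at 91.5, 22.5 and 12.3 CPM and the female controls at 19.0 and 4.64 CPM. Without LOS 1, the library with the highest COL18A1, the difference was -2.16. COL27A1 stood at 59.6, 46.6 and 42.9 CPM in male LOS libraries and 38.2, 22.7 and 23.6 CPM in male controls, and at 13.0, 47.7 and 39.5 CPM in female LOS libraries and 29.6 and 68.8 CPM in female controls. Its LOS difference was 0.82 ± 0.45 in males and -0.56 ± 0.49 in females (unadjusted p = 0.0637 for the difference), and without control 2 the difference between the sexes fell to 0.64, against 1.38 with it. For COL16A1 it was 0.21 ± 0.20 in males and -0.37 ± 0.22 in females (unadjusted p = 0.0809).

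Chains of 1 collagen type assemble together, so the ratio of their CPM was compared next, in 10 pairs of chains of 1 type or of neighbouring or related genes. Since CPM are not corrected for length, these ratios compare libraries and are not numbers of molecules. The ratio of COL1A1 to COL1A2 ran from 2.91 to 3.47 in LOS and from 2.90 to 3.34 in controls. The ratio of COL4A1 to COL4A2 ran from 1.85 to 2.14 in LOS and from 1.93 to 2.29 in controls, and that of COL6A1 to COL6A2 from 1.07 to 1.24 in LOS and from 1.06 to 1.18 in controls. No pair differed between LOS and control at an adjusted p under 0.05 in the exact permutation test (two-sided, 462 splits, Benjamini-Hochberg over 10 pairs). The smallest p was that of COL8A1 over COL8A2, whose log2 ratio averaged -7.38 ± 1.96 in LOS and -4.43 ± 0.80 in controls (SD, n = 6 and n = 5; exact permutation p = 0.0195, adjusted p = 0.195), with COL8A1 at as few as 1 count. COL12A1 over COL14A1 came next, with a log2 ratio of 5.15 ± 1.21 in LOS and 3.69 ± 1.28 in controls (SD, n = 6 and n = 5; exact permutation p = 0.0866, adjusted p = 0.433). Its ratio reached 121 in LOS and 45.5 in controls.

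Some partner chains varied together from fetus to fetus. Over the 11 libraries, log2(CPM + 0.5) of COL1A1 and COL1A2 had a Pearson r of 0.94 and a Spearman rho of 0.96 (adjusted permutation p = 0.0002 and 0.0001 over 10 pairs). Their r was 0.91 without LOS 2 and LOS 6, the libraries farthest from the median of COL1A1. COL4A1 and COL4A2 had r = 0.95 and rho = 0.91 (adjusted permutation p = 0.0002 and 0.00135), with r = 0.90 without LOS 1 and LOS 6. COL6A1 and COL6A2 had r = 0.86 and rho = 0.76 (adjusted permutation p = 0.00127 and 0.0295), with r = 0.73 without controls 2 and 4. Within the 6 LOS libraries alone r was 0.96 for the type I pair, 0.98 for the type IV pair and 0.76 for the type VI pair. The unadjusted p behind the rho of the type I pair, 1e-05, is the smallest that 100000 permutations can give.

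The pairs that passed include genes on different chromosomes and genes side by side. COL1A1 is on chromosome 19 and COL1A2 on chromosome 4. COL4A1 and COL4A2 lie head to head on chromosome 12, 295 bp apart and on opposite strands. COL6A1 and COL6A2 lie on the same strand of chromosome 1, 119074 bp apart. COL3A1 and COL5A2 lie tail to tail on chromosome 2, 16464 bp apart and on opposite strands, and had r = 0.01 and rho = 0.05 (adjusted permutation p = 0.969 and 0.903).

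COL5A1 and COL5A2 had r = 0.69 but rho = 0.45 (adjusted permutation p = 0.0451 and 0.247), r was 0.00 within LOS and 0.63 without control 5 and LOS 5, the libraries farthest from the median of COL5A1. COL15A1 and COL18A1 had r = 0.65 and rho = 0.58 (adjusted permutation p = 0.0624 and 0.129). For COL12A1 and COL14A1 both values were negative but did not pass, with r = -0.46 and rho = -0.64 (adjusted permutation p = 0.219 and 0.102). COL6A3 with COL6A1 (r = 0.46, rho = 0.55, adjusted permutation p = 0.219 and 0.148), COL3A1 with COL1A1 (r = 0.20, rho = 0.34, adjusted permutation p = 0.634 and 0.390) and COL8A1 with COL8A2 (r = -0.24, rho = -0.30, adjusted permutation p = 0.593 and 0.412) did not pass either.

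**Figure D4:**
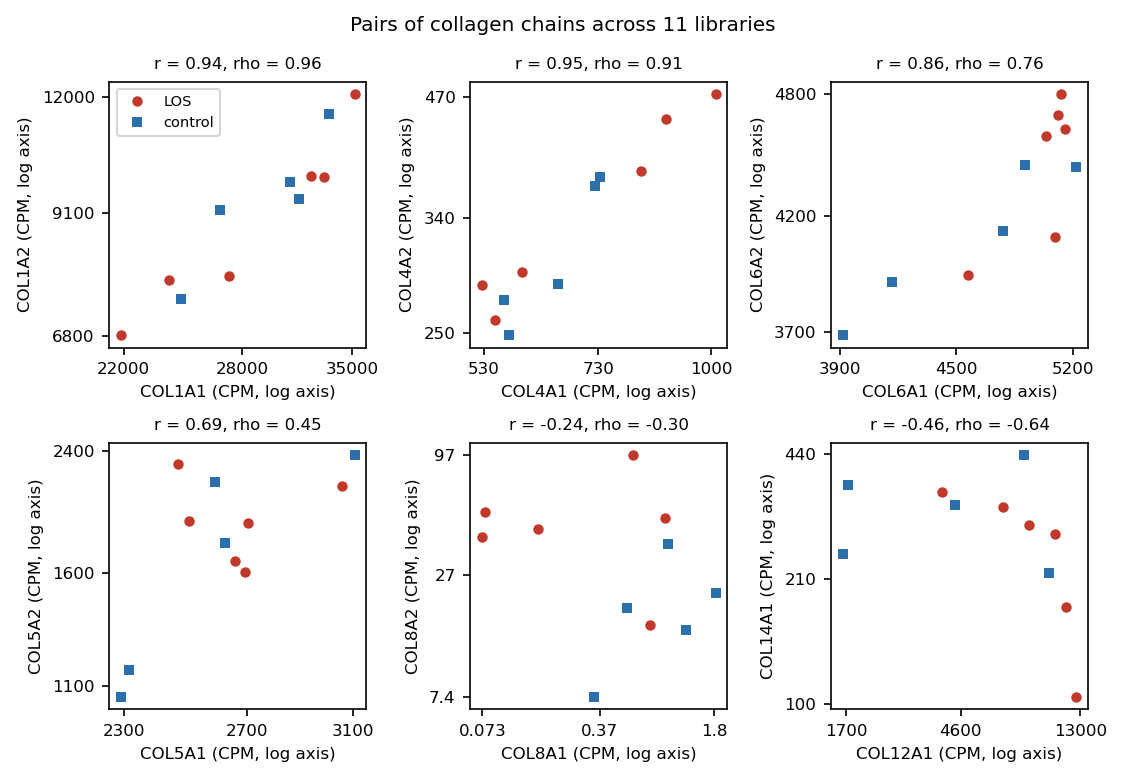
CPM of 6 pairs of chain genes in the 11 libraries (both axes in CPM on log scales), LOS as circles and control as squares. Pearson r and Spearman rho of log2(CPM + 0.5) are above each panel. The points of COL1A1 with COL1A2 and of COL4A1 with COL4A2 follow a line through both groups, while COL8A1 with COL8A2 and COL12A1 with COL14A1 do not.

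The last comparison sets the alleles of the parents against each other. The deposited table of allelic reads holds 22 of the 39 chain genes, with COL1A1 not among them, and 18 of the 22 passed the minimum of 20 allelic reads on average and 10 in at least 3 libraries of each group. Maternal and paternal reads differed in 6 of these 18 genes (edgeR's quasi-likelihood test with a term for each library, Benjamini-Hochberg over 5696 autosomal genes), beside 20.5% of all genes. The maternal allele was higher in 4 chain genes (10.2% of all genes) and the paternal allele in 2 (10.3% of all genes). Allelic depth differed widely between genes, and its part in these counts was not tested. The mother of a fetus also determines which breed her allele comes from, and the direction of the cross is not given in the labels, so parent and breed cannot be told apart. Whether reads of both alleles map equally well was not tested.

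The type VI chains COL6A1, COL6A2 and COL6A3 were called, in different directions, and COL6A5 was not. COL6A2, with 14719 to 22614 allelic reads per library, had 51.3%, 57.1% and 60.4% maternal reads (lowest, median and highest) in LOS and 61.7%, 58.5%, 56.8%, 58.5% and 57.1% in controls 1 to 5. All 11 libraries were above 50%, and the log2 ratio of maternal to paternal reads was 0.45 ± 0.04 (SE; adjusted p = 3.15e-09 by edgeR). LOS 1 was the lowest, at 51.3% with an exact 95% interval of 50.5% to 52.1%, which covers counting error only. COL6A1, 119074 bp away on the same strand, leaned to the paternal allele, with 40.0%, 46.2% and 49.8% maternal reads in LOS and 52.2%, 50.006%, 46.3%, 46.1% and 45.7% in controls. In 9 of 11 libraries it was below 50% (log2 ratio -0.18 ± 0.04, adjusted p = 0.00423 by edgeR). COL6A3, on chromosome 3, had 43.3%, 44.7% and 49.2% maternal reads in LOS and 46.7%, 48.3%, 47.6%, 48.7% and 50.5% in controls, below 50% in 10 of 11 libraries (log2 ratio -0.17 ± 0.04, adjusted p = 0.00357 by edgeR).

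COL5A1 had 49.8%, 54.8% and 56.5% maternal reads in LOS and 55.2%, 56.1%, 54.5%, 56.3% and 54.4% in controls, above 50% in 10 of 11 libraries (log2 ratio 0.27 ± 0.03, adjusted p = 7.84e-07 by edgeR). Its exception was LOS 6, with an exact 95% interval of 49.0% to 50.6%. COL4A1 had 50.6%, 51.1% and 60.4% maternal reads in LOS and 53.1%, 57.8%, 49.5%, 61.2% and 52.8% in controls, above 50% in 10 of 11 libraries (log2 ratio 0.25 ± 0.06, adjusted p = 0.00698 by edgeR). Its libraries fell into 2 sets, with LOS 2, LOS 5, control 2 and control 4 between 57.8% and 61.2% and the other 7 between 49.5% and 53.1%. COL16A1 had 48.6%, 54.4% and 58.9% maternal reads in LOS and 47.0%, 54.4%, 45.6%, 54.0% and 58.6% in controls, above 50% in 8 of 11 libraries (log2 ratio 0.20 ± 0.07, adjusted p = 0.0469 by edgeR). This call was lost in 8 of the 11 fits that left out a library (controls 2, 4 and 5 and LOS 1, 2, 3, 4 and 6) and in an exact sign-flip test over libraries (adjusted p = 0.153). That test kept the other 5 calls, with adjusted p between 0.0183 and 0.0446.

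The other 12 genes were not called. COL1A2 was close to balance, at 48.5%, 50.03% and 52.8% maternal reads in LOS and 49.8%, 50.3%, 50.1%, 52.2% and 52.2% in controls, on 4641 to 7394 reads per library (log2 ratio 0.03 ± 0.03). COL3A1 averaged 52.9% ± 5.45 in LOS and 55.8% ± 7.27 in controls (SD, n = 5 each), where LOS 4 had 0 allelic reads and gave no share and control 2 had 9 reads. COL12A1 averaged 53.0% ± 4.09 in LOS and 52.2% ± 3.98 in controls, COL5A2 51.7% ± 3.51 and 54.4% ± 7.60, and COL5A3 48.7% ± 5.78 and 44.3% ± 6.01 (SD, n = 6 and n = 5). COL3A1 was called without LOS 2 (adjusted p = 0.014), COL12A1 without LOS 1 (adjusted p = 0.037) or control 3 (adjusted p = 0.040), and COL5A3 without LOS 6 (adjusted p = 0.021), all by edgeR. COL11A1 averaged 47.5% ± 1.78 in LOS and 49.1% ± 2.72 in controls, COL14A1 48.8% ± 4.58 and 53.1% ± 4.08, and COL15A1 52.4% ± 6.10 and 50.4% ± 4.85 (SD, n = 6 and n = 5). The remaining 4 had few reads in some libraries: COL4A2 (49.7% in LOS and 53.7% in controls) and COL6A5 (54.3% and 50.1%) as few as 10, COL8A2 (46.1% and 44.9%) as few as 6, and COL27A1 (50.7% and 48.4%) as few as 36. Control 2 had 0 allelic reads of COL4A2 and LOS 1 had 0 of COL27A1, and these libraries gave no share of that gene.

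Whether the maternal share differs between LOS and control was tested by the interaction of allele and group. edgeR called 0 of the 18, beside 0.0% of 5696 genes, with 0 of the 18 at an unadjusted p under 0.05, beside 4.32% of all genes. An exact permutation test of the share per library called 0 chain genes as well. The largest differences in log2 ratio (LOS minus control) by the size of p were -0.14 ± 0.08 for COL6A3, -0.25 ± 0.14 for COL14A1 and -0.12 ± 0.09 for COL6A1, each with an adjusted p of 0.999. COL6A3 was at a mean of 45.8% ± 2.60 maternal reads in LOS and 48.4% ± 1.40 in controls (SD, n = 6 and n = 5).

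**Figure D5:**
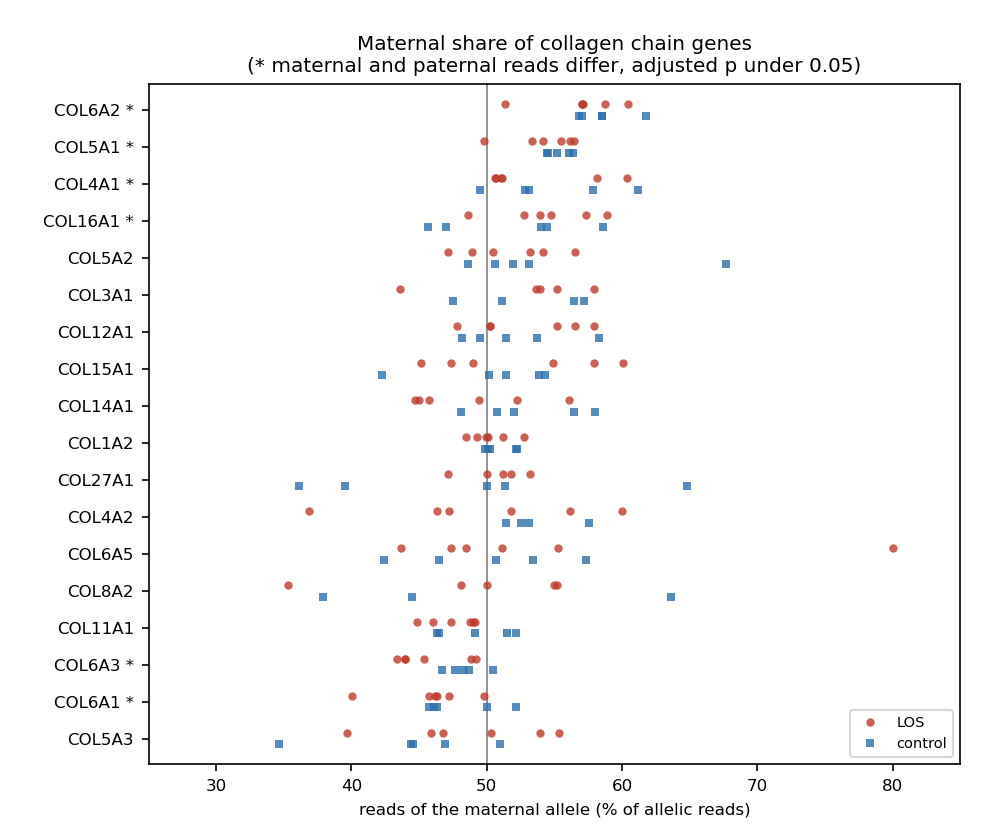
Share of allelic reads from the maternal allele (x axis, percent) of the 18 tested chain genes (y axis, ordered by the log2 ratio), in each LOS (circles) and control (squares) library with at least 10 allelic reads; the line marks 50%. COL6A2 lies above 50% in all 11 libraries, while COL6A1 and COL6A3 lie mostly below, and LOS and control points overlap in every gene.

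The genes that make, carry and remove collagen were set beside the chains from fixed lists. No gene of these lists was called by edgeR in LOS minus control, beside 0.0% of all genes, or in male minus female, beside 0.0472%. Of 13 tested genes that hydroxylate and glycosylate chains, 8 were on the higher side in LOS and 5 on the lower side (median log2 fold change 0.05, where the median of all genes was 0.00). PLOD2, a lysyl hydroxylase, averaged 238 ± 77.9 CPM in LOS cultures and 181 ± 122 CPM in control cultures (log2 fold change 0.50 ± 0.39), PLOD1 242 ± 53.1 and 215 ± 24.0 CPM, PPIB 254 ± 32.1 and 235 ± 20.8 CPM, and the galactosyltransferase gene COLGALT1 202 ± 20.6 and 214 ± 11.4 CPM (SD, n = 6 and n = 5). Of 13 folding and export genes, 9 were on the higher side and 4 on the lower side (median 0.10). SERPINH1, the collagen chaperone HSP47, averaged 1006 ± 59.4 CPM in LOS cultures and 896 ± 110 CPM in control cultures (0.17 ± 0.10), FKBP10 345 ± 71.4 and 297 ± 63.2 CPM, FKBP14 27.4 ± 4.39 and 23.5 ± 4.87 CPM, and HSPA5 490 ± 328 and 359 ± 141 CPM (SD, n = 6 and n = 5).

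Of 13 tested genes on the cleavage and crosslinking list, 3 were on the higher side in LOS and 10 on the lower side (median -0.19). Over all genes, 49.8% were on the higher side. An unadjusted p under 0.05 was seen in 2 genes of the list, beside 4.44% of all genes. These counts include FN1 (0.39 ± 0.38, higher side) and SPARC (-0.002 ± 0.18, lower side), matrix genes that are not enzymes of these steps. BMP1, which removes the carboxy-terminal propeptide, averaged 144 ± 12.3 CPM in LOS cultures and 164 ± 5.97 CPM in control cultures (-0.19 ± 0.08, unadjusted p = 0.027). ADAMTS2, which removes the amino-terminal propeptide, averaged 112 ± 58.5 CPM in LOS cultures and 176 ± 35.4 CPM in control cultures (-0.74 ± 0.32, unadjusted p = 0.039). The lysyl oxidase family gene LOXL3 averaged 12.7 ± 5.96 and 20.9 ± 7.25 CPM (-0.74 ± 0.35), and LOXL2, also of that family, 762 ± 173 and 595 ± 96.0 CPM (0.35 ± 0.18; SD, n = 6 and n = 5 for these genes). Of 10 receptor and uptake genes, 7 were on the higher side and 3 on the lower side (median 0.13), with ITGA1 at 82.3 ± 64.8 CPM in LOS cultures and 132 ± 63.4 CPM in control cultures and ITGB1 at 1118 ± 125 and 1024 ± 174 CPM. Of 8 tested degradation genes, 3 were on the higher side and 5 on the lower side (median -0.07). MMP9, a gelatinase, averaged 4.51 ± 6.80 CPM in LOS cultures and 0.40 ± 0.28 CPM in control cultures (2.93 ± 1.26, unadjusted p = 0.040). It ran from 0 to 16.0 CPM in LOS and from 0.20 to 0.88 CPM in controls, and its male minus female difference was 3.09 ± 1.27. The interstitial collagenases MMP1, MMP8 and MMP13 were not tested, with at most 28, 1 and 4 counts in a library.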

How the data were processed

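Total RNA of 11 fetal skin fibroblast cultures was sequenced as 150 bp paired ends, per the labels' protocols. The first table the authors deposited holds expected counts (estimated reads per gene, not normalised), of which 71.2% are whole with no tolerance allowed. The second holds read counts by parental allele, per the file headers. The third, also deposited, holds expected counts multiplied by the allelic share: the alleles of 47674 values summed to the first table within 0.001, with 0 beyond, so it was not tested separately. The build is ARS-UCD1.2, and the tools include Salmon 0.11.1, HISAT2 2.1.0, edgeR 3.36.0 and StringTie 2.1.4, per the submitters' processing notes. How reads were counted, by strand or between similar genes, is not stated in the labels. Of 79210 combinations of gene and library with allelic reads, 6 had 1 allele at 0, so a gene read from 1 allele alone would hardly appear.

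Expected counts were rounded and tested in R 4.3.3 with edgeR 4.0.16 (TMM factors, filterByExpr, quasi-likelihood tests, sex and group as terms, Benjamini-Hochberg over all genes tested). SEs are the log2 fold change divided by the square root of F. Allelic reads were fitted with a term for each library, and intervals of shares are exact Clopper-Pearson intervals at 95%. CPM were logged after adding 0.5 for the heat map, the SDs over the 11 libraries and the correlations, and without it for the chain ratios. Alternatives were DESeq2 1.42.0, limma 3.58.1 voom, other scalings and filters, a replicate block, dropping the sex term, and leaving out each library. The fits were checked on simulated data. The chain genes, lists, pairs and tests were chosen with earlier results of these data known. By the rule for named genes, library values are given for the 10 chain genes with the largest mean CPM, those with the smallest p (6 per direction for LOS, 3 per direction for sex, 3 for the interaction), the 4 with the largest SD, called genes and paired genes, allelic shares for every gene tested, and up to 4 genes per list.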

Additional observations from a re-analysis of the deposited data

Results flagged for a closer look

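In 111 sets of values (each chain gene's CPM or maternal share within LOS or within control), 10 had a fetus whose distance from the nearest other was large for the range of its set by Dixon's criterion at 95%. For independent, normally distributed values chance alone gives about 1 in 20 such sets, and whether these values meet that was not tested. Among the fibrillar and type VI chains, COL3A1 was at 7345 CPM in control 2, with the other controls at 5084 to 5350 CPM, and COL6A1 was at 4564 CPM in LOS 1, with the other LOS libraries at 5028 to 5144 CPM. LOS 1 also held COL18A1 at 91.5 CPM, against 3.89 to 23.7 CPM in the other LOS libraries, and COL21A1 at 2.87 CPM, against 0 to 0.453 CPM. COL17A1 was at 1.96 CPM in LOS 2, with the other LOS libraries at 0 to 0.378 CPM. COL25A1 was at 2.35 CPM in LOS 4, with the others at 0.653 to 1.28 CPM, and at 2.33 CPM in control 5, with the others at 0.541 to 0.811 CPM.

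The other 3 concern the maternal share. COL5A2 had 67.7% maternal reads in control 5 (exact 95% interval 64.1% to 71.1%, 699 reads), while the other controls lay between 48.6% and 53.1%. COL6A2 had 51.3% in LOS 1 (14719 reads), while the other LOS libraries lay between 57.0% and 60.4%. COL6A5 had 80.0% in LOS 2, on 10 reads (exact 95% interval 44.4% to 97.5%), while the others lay between 43.6% and 55.3%. The intervals cover counting error only.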

How the results depend on the processing

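No chain gene was called for LOS, for sex or for their interaction under any alternative run. For LOS minus control DESeq2 called 5 genes of all tested, where edgeR called 0. For male minus female edgeR called 8 genes, against 22 by DESeq2, 3 without assembled loci, 2 with a replicate block and 3 to 7 with each library left out. For the interaction DESeq2 called 6 genes where edgeR called 0. The interaction of allele and group had 0 to 1 called genes with each library left out, and sign flips called 748 genes for the alleles in place of 1165. Replicate numbers did not pair the libraries (same-number correlations -0.24 to 0.28, 2 of 5 above 0.1). With the replicate block no gene was called for LOS, and LOS minus control turned to 0.035 for COL1A1, -0.092 for COL5A3, 0.21 for COL17A1 and 0.18 for COL18A1. COL5A3 was -0.022 by voom. Small LOS differences changed sign as libraries were left out: COL1A1 -0.11 to 0.055, COL1A2 -0.19 to 0.021, COL3A1 -0.085 to 0.20, COL5A3 -0.15 to 0.40, COL6A3 -0.015 to 0.15, COL16A1 -0.16 to 0.068, COL18A1 -0.88 to 0.33 and COL25A1 -0.042 to 0.73. Others kept their sign but moved by over 1.5 times from their value with all 11 libraries: COL4A1 0.026 to 0.23, COL4A2 0.048 to 0.28, COL5A1 0.020 to 0.13, COL5A2 0.039 to 0.32, COL6A1 0.077 to 0.18, COL6A5 -0.60 to -0.080, COL11A1 0.069 to 0.41, COL14A1 -0.60 to -0.22, COL15A1 -1.48 to -0.60, COL17A1 -1.44 to -0.36, COL21A1 -1.85 to -0.81, COL24A1 0.50 to 1.03 and COL27A1 0.036 to 0.60. The rest moved less from that value: COL6A2 0.089 to 0.18, COL7A1 0.78 to 1.37, COL8A1 -1.60 to -0.89, COL8A2 1.08 to 1.58, COL12A1 0.70 to 1.15 and COL13A1 -2.96 to -1.75. Signs also changed in the log2 allelic ratios of COL4A2 (-0.031 to 0.076), COL6A5 (-0.050 to 0.055), COL8A2 (-0.19 to 0.00045) and COL27A1 (-0.074 to 0.075, and -0.026 by sign flips). The group differences in log2 chain ratio did so for COL3A1/COL5A2 (-0.31 to 0.10), COL6A1/COL6A2 (-0.0094 to 0.039) and COL6A3/COL6A1 (-0.14 to 0.035). The correlation of COL3A1 with COL5A2 was -0.032 with library totals as the scale, and that of COL8A1 with COL8A2 was 0.085 after removing sex and group. COL5A1 with COL5A2 missed the threshold under both (r = 0.55 and 0.66), and COL15A1 with COL18A1 passed it after removing sex and group (r = 0.69, adjusted permutation p = 0.0434). Rank correlation over all pairs of chain genes called 2 pairs where Pearson's r called 8. The cause of these changes was not tested. Depth limits COL8A1, COL13A1, COL17A1, COL21A1 and COL25A1, which have 0 to 9 counts in their lowest library.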

Other observations

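All 351 pairs of the 27 tested chain genes were also correlated over the 11 libraries, an analysis added after the data were seen. Pearson's r of log2(CPM + 0.5) passed an adjusted permutation p of 0.05 in 8 pairs, 6 positive and 2 negative, and Spearman's rho in 2 of these. Besides the partner chains of types I, IV and VI, the positive pairs were COL5A2 with COL11A1 (r = 0.92, rho = 0.71, adjusted permutation p = 0.0295 and 0.259), COL6A1 with COL12A1 (r = 0.92, rho = 0.77, adjusted permutation p = 0.0322 and 0.249) and COL8A2 with COL12A1 (r = 0.84, rho = 0.84, adjusted permutation p = 0.0412 and 0.116). After removing sex and group, COL8A2 with COL12A1 (r = 0.73, adjusted permutation p = 0.151) and COL6A1 with COL6A2 (r = 0.79, adjusted permutation p = 0.0941) no longer passed, while the other 6 pairs did. Without controls 2 and 4, r was 0.62 for COL5A2 with COL11A1 and 0.72 for COL6A1 with COL12A1. The negative pairs were COL7A1 with COL15A1 (r = -0.87, rho = -0.83, adjusted permutation p = 0.0295 and 0.116) and COL7A1 with COL1A2 (r = -0.85, rho = -0.69, adjusted permutation p = 0.0412 and 0.264). Without LOS 1 and LOS 6, the libraries with the lowest and the highest COL7A1, r was -0.78 for COL7A1 with COL15A1 and -0.68 for COL7A1 with COL1A2.

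Of the markers of other cells the cultures could hold, 0 were called by edgeR in LOS minus control, beside 0.0% of all genes. In male minus female 0 were called as well, beside 0.0472% of all genes. The endothelial markers summed to 2.72 to 5.02 CPM in LOS and 3.87 to 5.21 CPM in controls, the skeletal muscle markers to 0.21 to 1.23 and 0.41 to 1.27 CPM, and the leukocyte markers to 0.44 to 1.58 and 0.49 to 3.75 CPM. The adipocyte markers summed to 11.7 to 23.4 CPM in LOS and 8.84 to 37.6 CPM in controls, the cartilage and bone markers, mainly RUNX2, to 52.4 to 121 and 55.9 to 95.0 CPM, and the pericyte and smooth muscle markers, mainly CSPG4, to 133 to 280 and 122 to 266 CPM. In the cartilage and bone list 2 genes were on the higher side in LOS and 3 on the lower side (median log2 fold change -0.01). RUNX2, a factor of bone formation, averaged 88.5 ± 25.1 CPM in LOS cultures and 67.2 ± 15.3 CPM in control cultures, ALPL, the tissue-nonspecific alkaline phosphatase, 0.45 ± 0.47 and 2.41 ± 2.37 CPM (unadjusted p = 0.0228 by edgeR's model over all genes), and SP7 0.64 ± 0.36 and 0.43 ± 0.20 CPM (SD, n = 6 and n = 5). ACAN, the main proteoglycan of cartilage, averaged 0.67 ± 0.80 CPM in LOS cultures and 5.51 ± 8.29 CPM in control cultures (SD, n = 6 and n = 5; unadjusted p = 0.0392 by edgeR's model over all genes). It ran from 0.11 to 2.18 CPM in LOS and from 0 to 19.0 CPM in controls, so the groups overlapped. NGFR, of the melanocyte and Schwann cell list, ran from 0.073 to 1.96 CPM in LOS and from 0.14 to 13.3 CPM in controls (unadjusted p = 0.0188 by the same edgeR model).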
